A study of Homo sapiens with 4 samples.

Results

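Chromosome 3 held 3002 of the 51017 TEAD4 peaks called in a pair of human gastric cancer cell lines. SNU216 contributed 913 of its 11540 peaks and MKN28 contributed 2089 of its 39477 peaks. The members were all peaks that the authors' lists place on chromosome 3 of the human genome build hg19. SNU216 and MKN28 are established lines, the labels name no treatment, and chromatin of each was immunoprecipitated with the same TEAD4 antibody (Abnova, H00007004-M01). Every line had 1 TEAD4 library, whose peaks were called against 1 input of that line, so differences between SNU216 and MKN28 have no replicates behind them. Depth is unknown, since the lists hold no read counts. A site absent from a list did not reach the authors' threshold in that library, and TEAD4 may still bind it.

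TEAD4 binds DNA through the TEA domain that all TEAD proteins carry. It has no strong activity of its own and recruits the co-activators YAP and TAZ, which the kinases of the Hippo pathway hold back in the cytoplasm. Much TEAD binding lies in enhancers far from gene starts, often beside AP-1 sites, and TEAD target genes include regulators of the pathway itself. Chromosome 3 carries several genes of this system, among them WWTR1, which encodes TAZ, in band 3q25.1. AMOTL2, an angiomotin that binds YAP and is a known YAP and TEAD target, lies in 3q22.2. VGLL3 in 3p12.1 and VGLL4 in 3p25.3 to 3p25.2 encode cofactors that compete with YAP for TEAD. These band positions are textbook background. No peak was assigned to a gene, because no hg19 gene annotation was used here, and no peak sequence is shown for the same reason.

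Chromosome 3 was chosen by its peak counts, since it took a larger share of the SNU216 list than of the MKN28 list, so that excess and everything counted from it is description and carries no test. Of the peaks on chromosomes 1 to 22 and X, chromosome 3 held 7.92% in SNU216 and 5.30% in MKN28. The ratio of these shares was 1.496 (exact binomial 95% interval 1.38 to 1.62), the second highest of 23 chromosomes, after chromosome 14 at 1.52 and ahead of chromosome 20 at 1.39. All such intervals cover counting error only and treat neighbouring peaks as independent, which they are not. Per Mb, chromosome 3 carried 4.61 SNU216 peaks and 10.5 MKN28 peaks, against 3.74 SNU216 and 13.2 MKN28 peaks on the other chromosomes. Chromosome 3 thus stood above the rest of the genome in SNU216 and below it in MKN28.

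Both arms showed the excess. On 3q, SNU216 had 569 peaks and MKN28 had 1247, a ratio of shares of 1.56 (1.41 to 1.73). On 3p, SNU216 had 344 peaks and MKN28 had 842, a ratio of 1.40 (1.23 to 1.59). The intervals of the arms share values. At the rate of SNU216 to MKN28 peaks found on the other chromosomes, 593 SNU216 peaks would stand on chromosome 3, and 319.7 more were called. Of this surplus, 67.2% lay on 3q and 32.8% on 3p. The density of peaks was higher on 3q in both lines, with 5.32 against 3.78 peaks per Mb on 3p in SNU216 and 11.7 against 9.25 in MKN28.

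Along the chromosome the SNU216 surplus was spread over long stretches of both arms rather than held in a few blocks, though it did not cover the whole chromosome. SNU216 peaks made up 22.6% of the peaks of both lists over all chromosomes. Of the 40 blocks of 5 Mb on chromosome 3, 36 (90%) had a SNU216 share above that level, whereas 50.1% of all 599 blocks of the genome did. The count on chromosome 3 follows in part from the choice of this chromosome, and one of the 36, from 125 to 130 Mb, stood at 22.63% against the level of 22.61%. The median block share was 31.5% (quartiles 25.8 and 37.2%) on chromosome 3 and 21.8% (15.9 and 27.3%) over the 559 blocks of the other chromosomes. That median was the highest of the 23 chromosomes, followed by chromosome 14 at 31.1% and chromosome 20 at 29.1%. A single block has few peaks. The interval of 12 blocks lay wholly above 22.6%, that of 28 held it and that of 0 lay wholly below it, where 11.9% of all blocks lay above and 12% below.

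**Figure D1:**
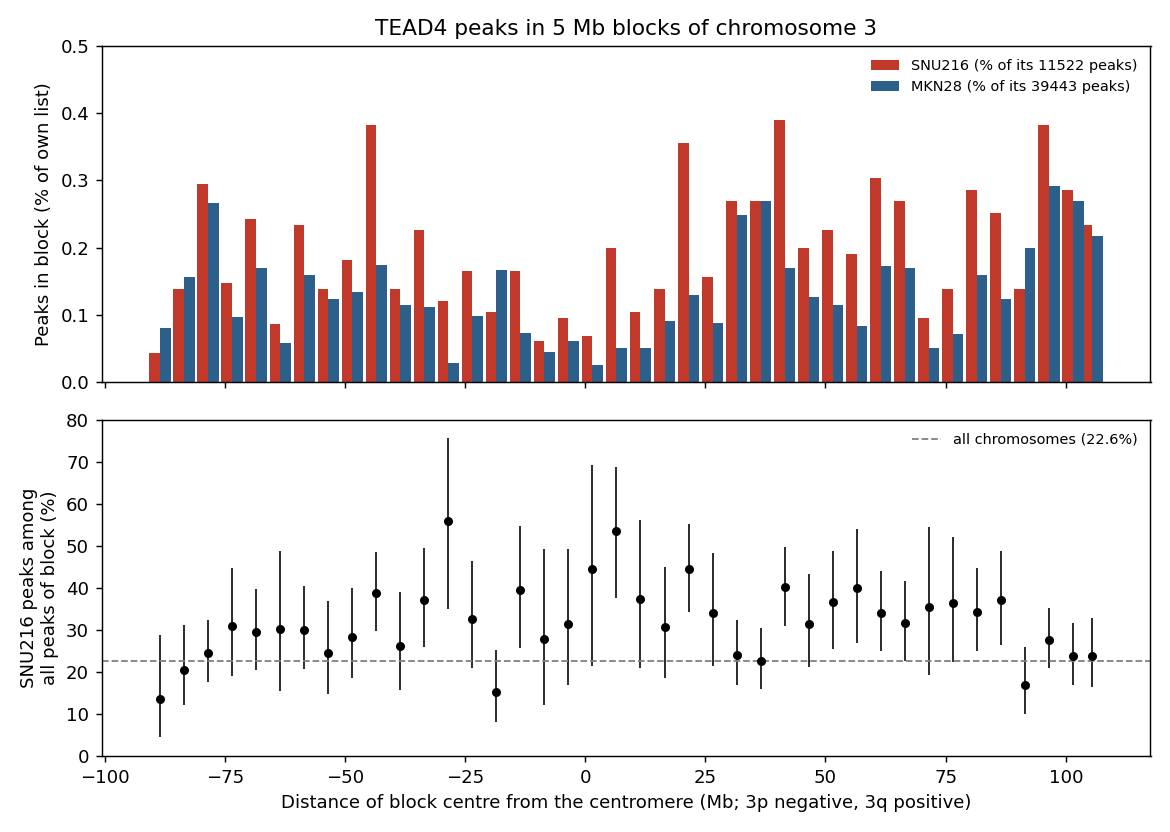
Upper panel: peaks in each 5 Mb block of chromosome 3 as a percentage of the line's own list, SNU216 in red and MKN28 in blue, against distance from the centromere in Mb. Lower panel: SNU216 peaks as a percentage of all peaks of the block with exact 95% binomial intervals; 36 of 40 blocks lie above the dashed line of all chromosomes (22.6%).

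The surplus did not rest on 1 block. Leaving out each block in turn gave ratios of shares from 1.47, without the block from 110 Mb, to 1.53, without the block from 180 Mb. The 5 blocks with the most surplus peaks held 34.4% of the net surplus, and 10 blocks held 56.1%. On chromosome 14 the 5 leading blocks of 19 held 58.0% of the surplus and on chromosome 20 the 5 leading blocks of 13 held 66.5%. These shares are not comparable directly, since the chromosomes have fewer blocks. Without its 5 blocks of highest SNU216 share, chromosome 3 had a ratio of 1.40. The same step gave 1.32 on chromosome 14 and 1.20 on chromosome 20. There 5 blocks are a larger part of the chromosome, so these ratios are not comparable directly either.

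**Figure D2:**
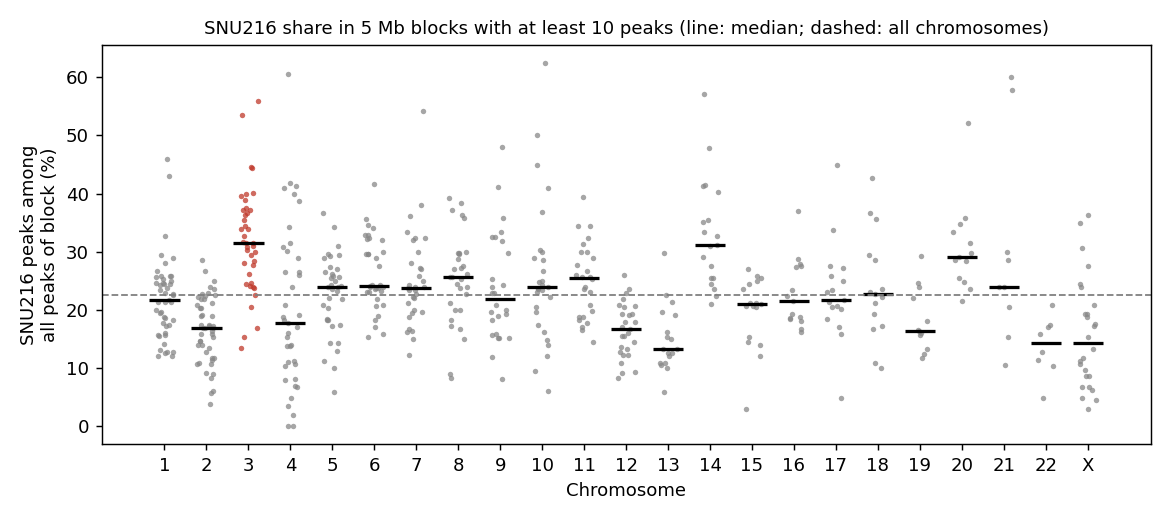
SNU216 peaks as a percentage of all peaks in each 5 Mb block with at least 10 peaks, by chromosome. Each point is a block, chromosome 3 is in red, the short lines are medians and the dashed line is the level of all chromosomes (22.6%). Most red points lie above the dashed line and their median is the highest of the 23 chromosomes.

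The ratio was near or below 1 at both ends and at 2 inner places. The stretches given here were drawn after the block values were seen. In the first 10 Mb of 3p there were 21 SNU216 and 94 MKN28 peaks, a ratio of shares of 0.765 (0.452 to 1.24). The block from 70 to 75 Mb, in 3p13 to 3p12.3, held 12 SNU216 and 66 MKN28 peaks, a ratio of 0.622 (0.306 to 1.16). From 120 to 130 Mb, in 3q13.33 to 3q22.1, the counts were 62 and 204 and the ratio was 1.04 (0.770 to 1.39). From 180 Mb to the end of 3q they were 120 and 386, with a ratio of 1.06 (0.860 to 1.31). Since the stretches were picked for their low shares and some hold few peaks, nothing is read from these intervals.

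Between them lay 3 long stretches in which every block stood above 22.6%. From 10 to 70 Mb of 3p, SNU216 had 272 peaks and MKN28 had 606, a ratio of 1.54 (1.33 to 1.78). From 75 to 120 Mb, which spans the centromere, the counts were 155 and 243 and the ratio was 2.18 (1.77 to 2.68). From 130 to 180 Mb of 3q they were 271 and 490, with a ratio of 1.89 (1.63 to 2.201). The surplus in these 3 stretches was 99.9, 86.0 and 131.8 SNU216 peaks, of 319.7 on the chromosome. It was −5.70 in the first 10 Mb, −6.74 from 70 to 75 Mb, 4.06 from 120 to 130 Mb and 10.4 from 180 Mb on. Nearly all of the net surplus thus lay in the 3 long stretches. The centromere stretch had the fewest MKN28 peaks per Mb, 5.40, beside 3.44 in SNU216. The stretch from 180 Mb to the end had 6.66 SNU216 and 21.4 MKN28 peaks per Mb. Across the 40 blocks the SNU216 share was lower where MKN28 peaks were many (Spearman rho −0.50). This is across neighbouring blocks of 2 libraries, and the MKN28 count also enters the share.

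Among blocks with at least 30 peaks of both lists, the highest SNU216 share was 53.5% (37.7 to 68.8), from 95 to 100 Mb in 3q11.2 to 3q12.1, with 23 SNU216 and 20 MKN28 peaks. The block from 110 to 115 Mb, in 3q13.13 to 3q13.31, followed with 41 and 51 peaks (44.6%, 34.2 to 55.3). The block from 130 to 135 Mb, in 3q22.1 to 3q22.2, had 45 and 67 peaks (40.2%, 31.0 to 49.9). The blocks from 145 Mb (40%) and from 75 Mb (39.6%) completed the 5 highest, and their intervals overlap one another. The 5 lowest were the blocks from 0 Mb (13.5%), 70 Mb (15.4%), 180 Mb (16.8%), 5 Mb (20.5%) and 125 Mb (22.6%). A block from 60 to 65 Mb had the highest share of all 40, 56.0%, on only 14 SNU216 and 11 MKN28 peaks.

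By band, the most SNU216-rich place was 3q12.1, chosen here after its counts were seen, with 22 SNU216 peaks and 5 MKN28 peaks in 1.7 Mb. Its SNU216 peaks ran from 98389323 to 99992128 and scored from 53.7 to 386, with a median of 90.9. Its MKN28 peaks ran from 98460066 to 99513525 and scored from 66.6 to 230, with a median of 99.6. An MKN28 counterpart was called for 2 of the 22 SNU216 peaks. The SNU216 peaks there were of moderate score, and several lay within a few kb of each other. The strongest of them, at 99988368 to 99988852, scored 386 and lay 366 kb from the nearest MKN28 peak. The nearby band 3q13.31 had 12 SNU216 and 7 MKN28 peaks, of which 3 in each line overlapped. In 3p14.2, the band of the fragile-site gene FHIT, SNU216 had 8 peaks and MKN28 had 4.

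The counts in bands that hold Hippo and TEAD genes, and in the band of TP63, are given next as a description of hand-picked bands. In 3q22.2, the band of AMOTL2, SNU216 had 30 peaks and MKN28 had 35, of which 25 and 19 overlapped the other list. Over all of chromosome 3, 53.9% of SNU216 and 22.98% of MKN28 peaks did. In 3q25.1, the band of WWTR1, there were 32 SNU216 and 63 MKN28 peaks. For VGLL4 the textbook position is 3p25.3 to 3p25.2, and on which side of their border the gene lies in hg19 was not checked. In 3p25.3 there were 17 SNU216 and 64 MKN28 peaks, and in 3p25.2 there were 19 and 34. In 3p12.1, the band of VGLL3, there were 8 and 15. In 3q28, the band of TP63, a squamous-lineage transcription factor, there were 39 and 75. The SNU216 share in these bands ran from 21.0% in 3p25.3 to 46.2% in 3q22.2, beside 30.4% over all of chromosome 3. The planned list of Hippo and TEAD genes was longer, and not all of its bands are given. It also held CTNNB1, whose band 3p22.1 had a share of 18.2%.

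Bands with other well-known genes, also picked by hand, are given as counts. In 3q26.32, the band of the kinase gene PIK3CA, SNU216 had 27 peaks and MKN28 had 42, a share of 39.1%. In 3q26.33, the band of SOX2, the counts were 10 and 28 (26.3%). In 3q29, which holds the mucin gene MUC4 and the transferrin receptor gene TFRC, they were 47 and 167 (21.96%). In 3p22.1, the band of the beta-catenin gene CTNNB1, they were 10 and 45 (18.2%). The lowest shares among bands with at least 30 peaks of both lists were 13.3% in 3q27.1, with 8 SNU216 and 52 MKN28 peaks, and 14.6% in 3q27.2, with 7 and 41. Of all 62 bands, 50 had a SNU216 share above 22.6%, 31 of the 35 on 3q and 19 of the 27 on 3p. No such count is given for the bands of other chromosomes, so this one has no background beside it. Many bands are short and hold few peaks.

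The excess was present at all levels of peak score. Each list was divided by score rank into 5 groups of equal size over the whole genome. The ratio of shares was 1.55 (1.29 to 1.86) in the highest-scoring group, with 173 SNU216 and 381 MKN28 peaks on chromosome 3. It was 1.43, 1.65 and 1.40 in the next groups and 1.45 (1.21 to 1.72) in the lowest-scoring group, with 188 and 446 peaks. The 5 intervals overlapped. The chromosome was chosen for a ratio above 1, so the place of these intervals against 1 carries no test. Chromosome 3 peaks were near the middle of their own lists, at a median percentile of 49.3 in SNU216 and 47.5 in MKN28. The score is the authors' peak-caller value and rises with depth, so it ranks peaks only within 1 list. Scores of 100 or more were found for 40.1% of SNU216 and 47.2% of MKN28 peaks on chromosome 3, and for 42.2% and 49.9% of the whole lists.

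**Figure D3:**
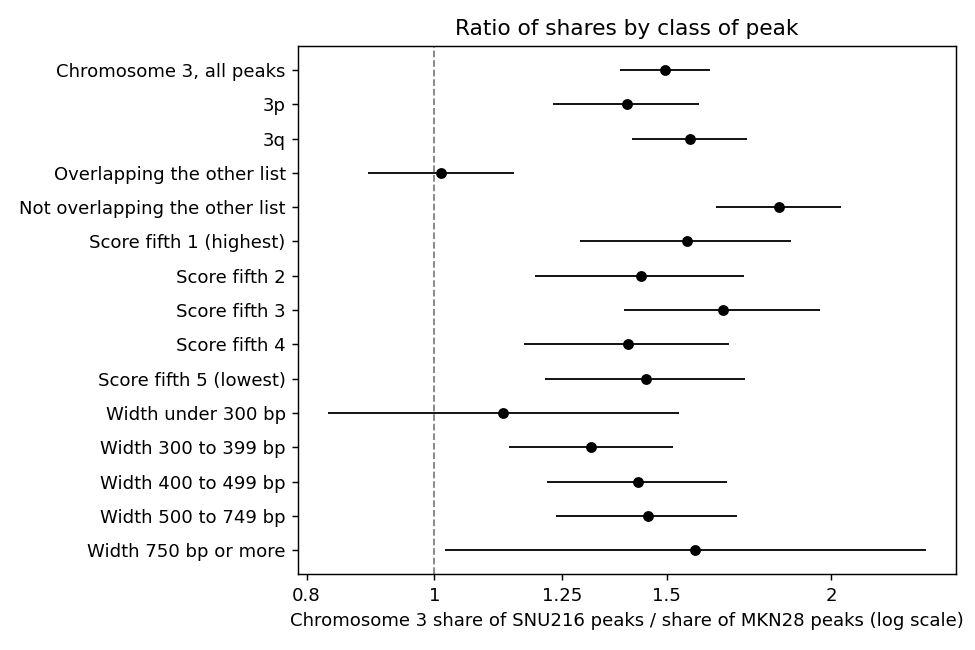
Ratio of the chromosome 3 share of SNU216 peaks to that of MKN28 peaks (log axis) with exact binomial 95% intervals, for all peaks, by arm, by overlap with the other list, by score group and by peak width. The dashed line marks a ratio of 1. The chromosome was chosen for a ratio above 1, so the place of the intervals against that line carries no test.

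Overlapping peaks pair nearly one to one, so their ratio of shares is close to 1 by construction and the excess had to fall on peaks found in 1 list. The split is given for its levels only. Among peaks that overlapped the other list, chromosome 3 held 7.20% in SNU216 (492 peaks) and 7.12% in MKN28 (480 peaks). Among peaks that did not, it held 8.98% in SNU216 (421 peaks) and 4.92% in MKN28 (1609 peaks), a ratio of 1.82 (1.64 to 2.03). The MKN28 peaks with a SNU216 counterpart thus stood on chromosome 3 more often (7.12%) than MKN28 peaks in general (5.30%).

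The share of overlapping peaks was lower than on the other chromosomes in SNU216 and higher in MKN28. On chromosome 3, 53.9% (50.6 to 57.2) of SNU216 peaks shared at least 1 bp with an MKN28 peak, against 59.8% (58.8 to 60.7) on the other chromosomes and 59.3% of the whole list. On the same chromosome, 22.98% (21.2 to 24.8) of MKN28 peaks overlapped a SNU216 peak, against 16.8% (16.4 to 17.2) on the other chromosomes and 17.1% of the whole list. The arms were alike, with 54.5% on 3q and 52.9% on 3p in SNU216 and 24.1% and 21.4% in MKN28. The ratio of list lengths differs between chromosome 3 and the rest, and a longer partner list offers more chances of overlap. Overlapping peaks come mostly in pairs, so both shares are tied to the peak counts by which the chromosome was chosen. The contrast between the lines is therefore description and no separate finding. The level of each share depends on list length. With MKN28 limited to as many of its strongest peaks as SNU216 has, 28.8% of SNU216 and 44.7% of MKN28 peaks on chromosome 3 overlapped, which turns the order of the lines. These shares were not tested.

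The lower SNU216 overlap came with the weaker peaks. In the highest-scoring SNU216 group, 86.7% of chromosome 3 peaks (80.7 to 91.4) overlapped an MKN28 peak, and 86.7% (85.2 to 88.1) did elsewhere. In the middle group the values were 52.0% (44.9 to 59.0) and 63.3% (61.2 to 65.4). In the lowest-scoring group they were 23.9% (18.03 to 30.7) and 30.9% (28.9 to 32.9). In MKN28 the overlap was higher on chromosome 3 in each of the 5 groups. It was 49.3% (44.2 to 54.5) against 39.8% (38.7 to 40.9) in the highest-scoring group. In the lowest it was 8.30% (5.91 to 11.3) against 4.66% (4.19 to 5.16). Both directions are tied by construction to the peak counts by which the chromosome was chosen.

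**Figure D4:**
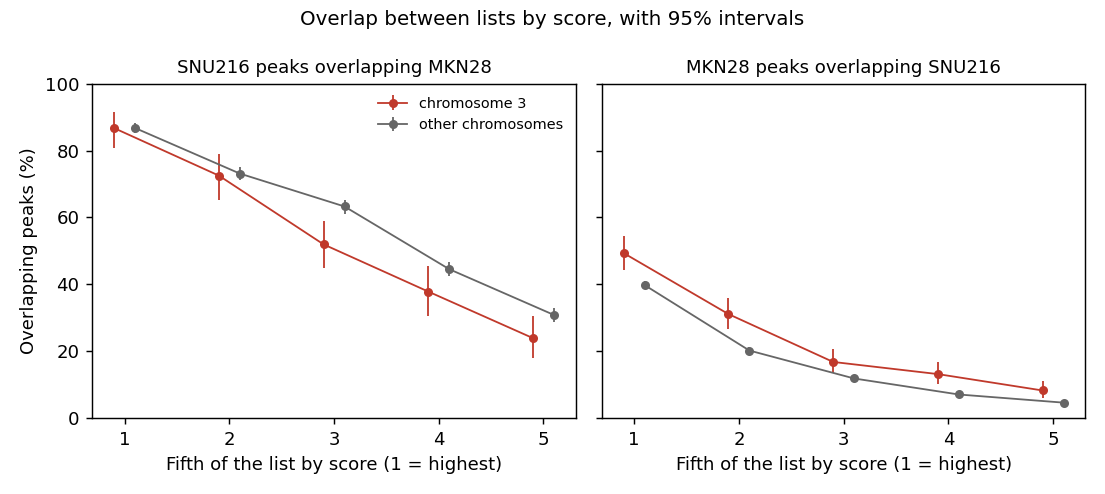
Percentage of peaks overlapping the other list by score group (1 is the highest-scoring), for SNU216 peaks at left and MKN28 peaks at right, chromosome 3 in red and the other chromosomes in grey, with exact 95% binomial intervals. Chromosome 3 equals the rest for the strongest SNU216 peaks (86.7% in both) and lies below it in group 3 (52.0% against 63.3%), while the MKN28 values lie above the rest in all 5 groups.

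Overlap also varied along the chromosome. From 180 Mb to the end of 3q, 67.5% (58.3 to 75.8) of SNU216 peaks overlapped an MKN28 peak, against 44.5% (36.5 to 52.7) from 75 to 120 Mb. In MKN28 the order was turned, with 21.0% (17.0 to 25.4) from 180 Mb to the end and 27.2% (21.7 to 33.2) from 75 to 120 Mb. These MKN28 intervals overlap. The stretches were drawn after their SNU216 shares were seen. Overlapping peaks come mostly in pairs, so a low SNU216 share tends by construction to raise the SNU216 overlap and lower that of MKN28. In the first 10 Mb of 3p, 47.6% (25.7 to 70.2) of the 21 SNU216 peaks and 10.6% (5.22 to 18.7) of the 94 MKN28 peaks overlapped. Over the 37 blocks with at least 10 SNU216 peaks, the overlapping share of SNU216 peaks ran from 13.0%, in the block that holds 3q12.1, to 75%.

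Peaks in SNU216 were narrower, as in the rest of the genome. The median width on chromosome 3 was 401 bp in SNU216 (quartiles 334 and 496 bp) and 498 bp in MKN28 (402 and 617 bp). On the other chromosomes the medians were 408 bp in SNU216 and 527 bp in MKN28. The SNU216 median was the smaller in 37 of the 40 blocks. Peaks of 1 kb or more were 6 of the 913 SNU216 peaks (0.657%) and 48 of the 2089 MKN28 peaks (2.30%), below the 1.4% and 4.05% of the whole lists. Divided by the median width at that score within the own list, chromosome 3 peaks had a median relative width of 1.004 in SNU216 and 0.965 in MKN28. By block this relative width ran from 0.864 to 1.14 in SNU216 (37 blocks) and from 0.793 to 1.05 in MKN28 (40 blocks).

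Where both lines had a peak, the peaks sat at nearly the same place. The midpoints of the 492 overlapping SNU216 peaks lay a median of 48 bp from those of their highest-scoring MKN28 partners, and 74.4% lay within 100 bp. The SNU216 peak was the narrower in 74.0% of pairs, with a median width ratio of 0.785. By percentile within the own list, the SNU216 peak ranked higher than its partner in 41.7% of pairs, and in 32.3% of 6341 pairs on the other chromosomes. The raw scores of the lists are on scales that depth can shift, so their ratio describes these 2 libraries and is of use only between places. Its median was 0.659 on chromosome 3 and 0.557 on the other chromosomes. The chromosome 3 ratio was the third highest of the 23 chromosomes, after 0.757 on chromosome 18 and 0.681 on chromosome 6. Its quartiles, 0.370 and 1.13, span the medians of all chromosomes. By stretch the ratio was 0.658 from 10 to 70 Mb, 0.641 from 75 to 120 Mb, 0.695 from 130 to 180 Mb and 0.659 from 180 Mb to the end. It was 0.510 from 120 to 130 Mb, 0.652 from 70 to 75 Mb (7 pairs) and 0.896 in the first 10 Mb (10 pairs). The stretches with a ratio of shares near or below 1 thus had medians on both sides of those of the stretches with higher ratios.

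Giemsa staining gave no class of band that held the excess by itself. Pale bands (gneg), which are richer in genes, had 489 SNU216 and 1107 MKN28 peaks on chromosome 3, a SNU216 share of 30.6% (28.4 to 33.0), against 21.3% in the pale bands of the other chromosomes. The darkest bands (gpos100) had 42 and 105 peaks, a share of 28.6% (21.4 to 36.6), against 24.0% elsewhere. In the 3 classes between, the share on chromosome 3 was 26.9%, 31.9% and 31.3%, against 21.3%, 22.8% and 24.6% elsewhere. The share was the higher on chromosome 3 in each of the 5 classes. Of these 5 classes, which leave out the centromere bands and the variable band 3q11.2, the darkest had the lowest peak density in both lines. There were 6.09 SNU216 and 13.8 MKN28 peaks per Mb in pale bands and 2.05 and 5.12 in the darkest bands.

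Among the 10 highest-scoring overlapping peaks of each list, 6 regions were in both sets. On 3q lay 8 of the 10 in SNU216 and 8 of the 10 in MKN28. Of all overlapping peaks of the chromosome, 3q held 63.0% in SNU216 and 62.5% in MKN28. With only 10 peaks in each set, no difference is read from this. The first of the 6, in 3q22.2, scored 3117 in SNU216 (134045581 to 134046205), the highest score of that list, and 3100 in MKN28 (134045465 to 134047455). A region in 3q29 scored 2229 in SNU216 (197216862 to 197217485) and 2368 in MKN28 (197216677 to 197217548). The highest-scoring MKN28 peak of the chromosome lay in 3q21.2, the band of the integrin gene ITGB5. It scored 3157 in MKN28 (124553485 to 124554176), with a SNU216 partner of 938 (124553511 to 124554145). By score rank the 3q21.2 site was number 11 of chromosome 3 in SNU216 and number 1 in MKN28. The score of 3100 is tied across several peaks of the MKN28 list. Scores at and near that value are therefore not read as an order.

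The other 3 regions were in 3p22.2, 3q25.32 and 3q22.1. The 3p22.2 region, in the band of the integrin gene ITGA9, scored 960.4 in SNU216 (37987456 to 37987911) and 2772 in MKN28 (37986745 to 37988570). The 3q25.32 region scored 1278 in SNU216 (157217060 to 157217535) and 1932 in MKN28 (157216955 to 157217696). The 3q22.1 region scored 1012 in SNU216 (133198697 to 133199407) and 1788 in MKN28 (133198736 to 133199369). The strongest overlapping SNU216 peak of 3p was in 3p21.2 (50662046 to 50662654). It scored 1029 and its MKN28 partner scored 1069.

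Some strong sites had a weak partner. In 3q21.3, an MKN28 peak of score 1905 (126471874 to 126472763) had a SNU216 partner of 52.7 (126472113 to 126472483), close to the lowest score of the SNU216 list. In 3q21.2, an MKN28 peak of 1979 (124781515 to 124782560) had a SNU216 partner of 188. In the other direction, a SNU216 peak of 961 in 3q22.2 (134030499 to 134031665) had an MKN28 partner of 180.2. It ranked 9 on chromosome 3 in SNU216, and its partner ranked 531 in MKN28. Over the 492 pairs the scores of the partners followed each other with a Spearman rho of 0.38, across peaks that are not independent replicates.

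In the highest-scoring group, 150 of 173 SNU216 peaks and 188 of 381 MKN28 peaks of the chromosome had a partner, the MKN28 peaks being matched against the shorter list. The strongest SNU216 peak without an MKN28 peak was in 3q26.2 (168829781 to 168830428), the band of MECOM and of the telomerase RNA gene TERC. It scored 1011, number 8 of the chromosome, and the nearest MKN28 peak lay 34.0 kb away with a score of 62.7. The next were in 3p14.2 (62593257 to 62593751, score 434), 3p22.2 (38583997 to 38584447, score 409), 3q12.1 (score 386) and 3p26.2 (3741915 to 3742407, score 345). Apart from the first, these peaks ranked from 47 to 67 on the chromosome. The 5 strongest MKN28 peaks without a SNU216 peak scored from 889 to 1288. Of these, 2 lay in 3q21.2 (124862320 to 124863382, score 1288, and 124432125 to 124432886, score 1147). The others were in 3q25.33 (159349855 to 159350401, score 1237), 3q29 (196601462 to 196602105, score 1179) and 3p14.1 (69280757 to 69281959, score 889). Scores of 1000 or more were found for 8 SNU216 peaks (0.876%) and 34 MKN28 peaks (1.63%) of the chromosome, and for 0.745% and 2.02% of the whole lists.

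Peaks were crowded in 3q22.2, around the strongest SNU216 peak, in both lines. Within 150 kb on either side of that peak's midpoint, SNU216 had 25 peaks and MKN28 had 24. No window of 300 kb on chromosome 3 held more than 26 in either line, whereas in windows of 1 Mb the fullest MKN28 window lay elsewhere, from 124 to 125 Mb, with 39 peaks. Of the 25 SNU216 and 24 MKN28 peaks within 150 kb, 22 and 16 overlapped the other list. Over chromosome 3, 53.9% of SNU216 and 22.98% of MKN28 peaks did, and over the whole lists 59.3% and 17.1%. The stretch was picked around a peak found in both lists. The scores ran from 51.5 to 3117 in SNU216, with a median of 158, and from 52.6 to 3100 in MKN28, with a median of 169. A score of 500 or more was reached by 4 peaks in SNU216 and 5 in MKN28.

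**Figure D5:**
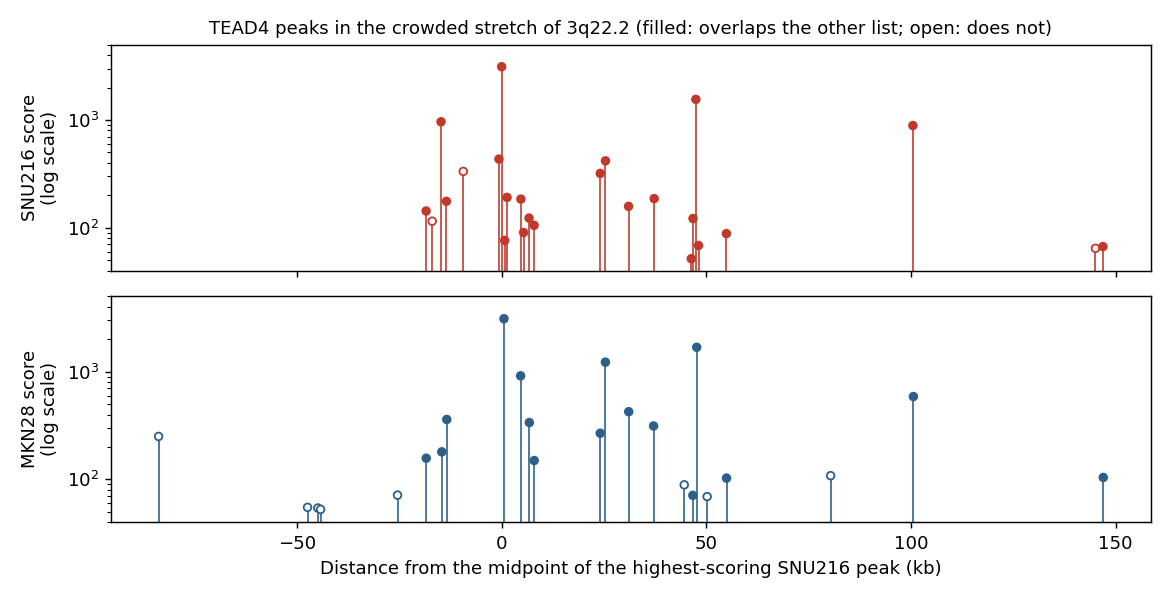
TEAD4 peaks within 150 kb of the highest-scoring SNU216 peak in 3q22.2, SNU216 above and MKN28 below, by distance from that peak's midpoint in kb and by score (log axis); filled points overlap the other list. The peaks near 0, 25, 47 and 100 kb are present in both lines, and the peaks more than 20 kb to the left are MKN28 peaks without a partner.

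In this stretch the MKN28 peak of score 3100 was 1991 bp wide and overlapped 4 separate SNU216 peaks, the only such case on the chromosome with more than 2 partners. The neighbouring strong pair, 47 kb away, scored 1552 in SNU216 (134093005 to 134093685) and 1682 in MKN28 (134092925 to 134094177). A further pair 100 kb away scored 887 in SNU216 (134146045 to 134146678) and 587 in MKN28 (134146082 to 134146891). A pair 25.4 kb away scored 417 in SNU216 (134070989 to 134071531) and 1225 in MKN28 (134070849 to 134071646). To the left of the strongest peak, MKN28 had 5 peaks more than 20 kb away, with scores from 52.6 to 250, and SNU216 had 0. On the chromosome as a whole, 4 SNU216 peaks and 14 MKN28 peaks had more than 1 partner.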

How the data were processed

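TEAD4 ChIP-seq peak lists of 2 gastric cancer cell lines were used, 1 library per line. Per the submitters' processing notes, CASAVA 1.8, Bowtie2 2.0.0, MACS and hg19 were used, without settings or a MACS version. The authors deposited a position and a peak-caller score for each peak, without a header or read counts; no source used here states the score's scale. The lowest score was 50.01 in SNU216 and 50.00 in MKN28. Input libraries entered only through the authors' peak calling.

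Positions are given 1-based on hg19. Bands and chromosome lengths came from circlize 0.4.16, and 0 peaks lay past a chromosome end. A peak belonged to the block, band and arm of its midpoint. Overlap meant at least 1 shared bp. The ratio of shares is the chromosome 3 share of SNU216 peaks over that of MKN28 peaks on chromosomes 1 to 22 and X. Intervals are exact 95% binomial (Clopper-Pearson) intervals. Relative width is a peak's width over the median width of its score group, with each list cut into 50 groups. Surplus is the SNU216 count minus the MKN28 count times the SNU216 to MKN28 rate of the other chromosomes. With 1 library per line, no test was run. The code was tested on simulated data.

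The chromosome, the lists and the naming rule were chosen with earlier results of these data known. The naming rule took the 10 strongest overlapping and the 5 strongest other peaks of each list on chromosome 3, the strongest of each arm, and the 5 blocks of highest and of lowest SNU216 share among blocks with at least 30 peaks. Ties went to the longer peak. Planned steps that need an hg19 genome or annotation (gene lists, the nearest gene and a motif search) were not run. The software was R 4.3.3 and Python 3.11.15 with scipy 1.17.1, pandas 2.3.3, numpy 2.4.6 and matplotlib 3.10.9.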

Additional observations from a re-analysis of the deposited data

How the results depend on the processing

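The ratio of shares of chromosome 3 stayed above 1 and within its interval in 45 of 46 alternatives. Leaving out each of the 40 blocks in turn made up most of these alternatives, and each such step can move the ratio little. The ratio was 1.63 with an MKN28 list of equal length, against 1.496, which is outside that interval. The ratios of both arms stayed within their intervals in all 4 alternatives each. Blocks above the genome-wide share numbered 79 of 99 with blocks of 2 Mb and 19 of 20 with blocks of 10 Mb. As a share of blocks this was 79.8% and 95%, against 90%. It was 78.05% (32 of 41) with blocks moved by 2.5 Mb, and 80% to 90% in the other 4 alternatives. The cause of these moves was not tested. The share over all blocks of the genome is given only for the main setting with blocks of 5 Mb (50.1%). The SNU216 overlap was 45.6% (3q 46.2%, 3p 44.5%) where the shared stretch had to be 50% of each peak, and 49.7% (3q 50.1%) for midpoints within 200 bp. Among peaks scoring 100 or more in both lists it was 63.7% (3q 65.6%, 3p 60.6%), and with an MKN28 list of equal length 28.8% (3q 27.8%, 3p 30.5%). The MKN28 overlap was 19.9% under the 50% rule and 44.7% for an MKN28 list of equal length. Stricter overlap and a shorter partner list lower a share by construction; the cause of the other moves in overlap was not tested either. The ratio of median widths (SNU216 over MKN28) was 0.857 with a score of at least 100, against 0.805. The ratio of median scores was 0.941 with that threshold and 0.669 among overlapping peaks, against 0.885. The motif count was not run. No paired analysis was possible because each line has 1 library, and no replicate could be left out. Depth is unknown, which bounds what a peak missing from a list can show.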

Other observations

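In windows of 1 Mb, chosen after the block values were seen, 168 of the 199 windows of chromosome 3 held peaks of both lines, 2 held SNU216 peaks only, 24 held MKN28 peaks only and 5 held none. SNU216 peaks outnumbered MKN28 peaks in 21 windows. The fullest SNU216 window, from 134 to 135 Mb in 3q22.2, held 26 peaks of each line. The window from 177 to 178 Mb in 3q26.32 held 20 SNU216 and 21 MKN28 peaks. The window from 99 to 100 Mb in 3q12.1 held 15 SNU216 and 2 MKN28 peaks. The fullest MKN28 window, from 124 to 125 Mb in 3q21.2, held 13 SNU216 and 39 MKN28 peaks. The counts of the 199 windows followed each other with a Spearman rho of 0.68, across windows that are neighbours in 2 libraries.

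The longest gap between neighbouring SNU216 peaks, 3.61 Mb, lay in 3q11.2, from 94628759 to 98241977, beside the SNU216-rich band 3q12.1. The next SNU216 gap, 3.50 Mb, was nearly as long and lay across the centromere, from 90065332 to 93563074. The longest gap between MKN28 peaks, 3.27 Mb, lay across the centromere as well, from 90288563 to 93563083. In 3q11.2 there were 6 SNU216 and 18 MKN28 peaks.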
